A study of Mus musculus with 32 samples.

Results

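Canonical WNT signaling acts through β-catenin, the protein encoded by Ctnnb1. Without a WNT ligand, a complex of scaffold proteins and kinases marks β-catenin for degradation. When a ligand binds Frizzled and LRP receptors that complex is held back, and β-catenin enters the nucleus, where it works with DNA-binding proteins of the TCF/LEF family. Several targets of this step, Axin2 and Nkd1 among them, encode proteins that dampen the pathway in turn, and secreted proteins such as those of the SFRP family and WIF1 bind the ligands outside the cell. In the hindbrain the pathway is known for its part in patterning, and 1 of the recognized groups of human medulloblastoma is named after it.

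Messenger RNA levels of 10 WNT pathway genes were examined in 2 mouse models of medulloblastoma. The genes were taken by symbol: the transducer Ctnnb1, the nuclear factors Lef1, Tcf7, Tcf7l1 and Tcf7l2, the intracellular feedback genes Axin2 and Nkd1, and the secreted genes Sfrp1, Wif1 and Dkk3. They are 10 of the 37310 genes in the count table, and each symbol matched a row. The GMYC group held 6 brain tumor biopsies in which a TRE-MYC transgene is driven by the Glt1-tTA transgene, and the GTML group held 8 in which MYCN is driven in the same way. Glt1-tTA is a tetracycline-controlled activator expressed from the promoter of a glutamate transporter gene of glial cells, so in both models the oncogene is on in the absence of doxycycline. All mice had the FVB/N background, and no tumor in either group had a drug treatment in its labels. The age at which each tumor was taken is not given in the sources used here. The paper credits at least part of the GTML reads to an earlier study. Model and study of origin therefore cannot be fully told apart. Nothing says how many mice or litters the tumors came from beyond their separate labels, so p-values measure the spread between these samples. Levels are given as CPM, the counts scaled to a common library size after TMM normalization, and fold changes are log2 values of GTML over GMYC. A gene is called when the quasi-likelihood test of edgeR gave it an adjusted p under 0.05 over all genes tested.

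The libraries held between 4602294 and 7279811 counts, with the GMYC tumors at 6218378 or more and the GTML tumors at 6317404 or less. The labels held for the driving oncogenes: the level of Myc was 128 ± 47.5 CPM (SD, n = 6) for GMYC against 5.20 ± 1.89 CPM (n = 8) for GTML, and that of Mycn 23.0 ± 10.8 against 159 ± 28.0 CPM. The tumor markers Otx2 and Syp were present in every tumor, at 237 CPM or more and 80.3 CPM or more. GTML tumor 2 stood apart from the other 13, with the lowest summed level of 8 tumor identity markers (877 CPM, where 1 of the 8, Tubb3, was called between the models) and with Gli1, a transcription factor and target of Sonic hedgehog (SHH) signaling, at 14.1 CPM. The 8 markers did not all go the same way there. Crx was the lowest of all tumors at 97.6 CPM, but Npr3 was the highest at 176 CPM, with 67.4 CPM or less in the other 13. The libraries also fell into 2 sets by the share of counts at small nucleolar RNA (snoRNA) genes, above 0.3% in GMYC tumors 1 to 4 and GTML tumors 1 and 2, and below it in the other 8. The labels name no batch for this split, but the first set comes wholly before the second in the numbering of the samples. Values within each set are given for the called members and, grouped, for the other called pathway genes.

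The 300-base promoters of RefSeq (250 bases before each start and 50 after, build GRCm38.p6) were searched for 2 kinds of letters, because TCF/LEF factors are among these genes, Axin2 and Nkd1 are known targets of them, and the tumors are driven by MYC proteins. The TCF/LEF core was searched on both strands as CTTTGAT and as the 3 forms in which its last letters are AA, TT or TA instead, and the E-box bound by MYC and its partners as CACGTG, which reads the same on both strands and does not overlap the former. Promoters were found for 8 of the 10 genes, 14 in all, and none for Dkk3 and Sfrp1. The TCF/LEF core was in 2 of the 14, beside 16.9% of all 32851 promoters. The E-box was in 2 of the 14, beside 7.15% of all promoters. The 4 matches are given here within 60 bases on the + strand, with the matched letters in capitals. The first pair lies before 1 internal start of Lef1, 147 to 141 and 79 to 74 bases ahead of it. The Tcf7l2 match lies 14 to 8 bases before the second start of that gene, and the Wif1 match 210 to 205 bases before the start.
Lef1, TCF/LEF core on the opposite strand, chr3:131156120-131156179: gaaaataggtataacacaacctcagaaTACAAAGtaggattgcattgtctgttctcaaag
Lef1, E-box, chr3:131156188-131156247: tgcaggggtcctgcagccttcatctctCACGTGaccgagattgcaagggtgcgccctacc
Tcf7l2, TCF/LEF core, chr19:55895261-55895320: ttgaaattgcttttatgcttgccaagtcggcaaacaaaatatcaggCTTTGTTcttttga
Wif1, E-box, chr10:121033767-121033826: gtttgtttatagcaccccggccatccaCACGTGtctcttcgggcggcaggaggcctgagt
The matches are a description of the letters in these windows and were not tested for binding. Of these 3 genes, Lef1 and Wif1 had a tumor that stood far above its model, and Tcf7l2 was among the genes with the lowest levels, as their values show.

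Between the models, Ctnnb1 was lower and Sfrp1 higher in GTML tumors, and the other 7 genes that could be tested did not pass the test. Of the 10 genes, 9 passed the filter on low counts (CPM above 1 in at least 3 tumors) and Wif1 did not. The 2 called genes are 22.2% of the 9, beside 21.2% of all 21024 genes tested (11.5% higher in GTML tumors and 9.71% higher in GMYC tumors), so the share called was close to the background. Under a stricter rule, which asks for an adjusted p of less than 0.01 together with a log2 difference of more than 1 in size, Sfrp1 passed, beside 3.22% of all genes tested. Ctnnb1 and Sfrp1 were also the 2 genes whose models did not overlap in CPM, which held for 4.62% of all genes tested. The median log2 fold change of all genes tested was 0.0362.

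**Figure D1:**
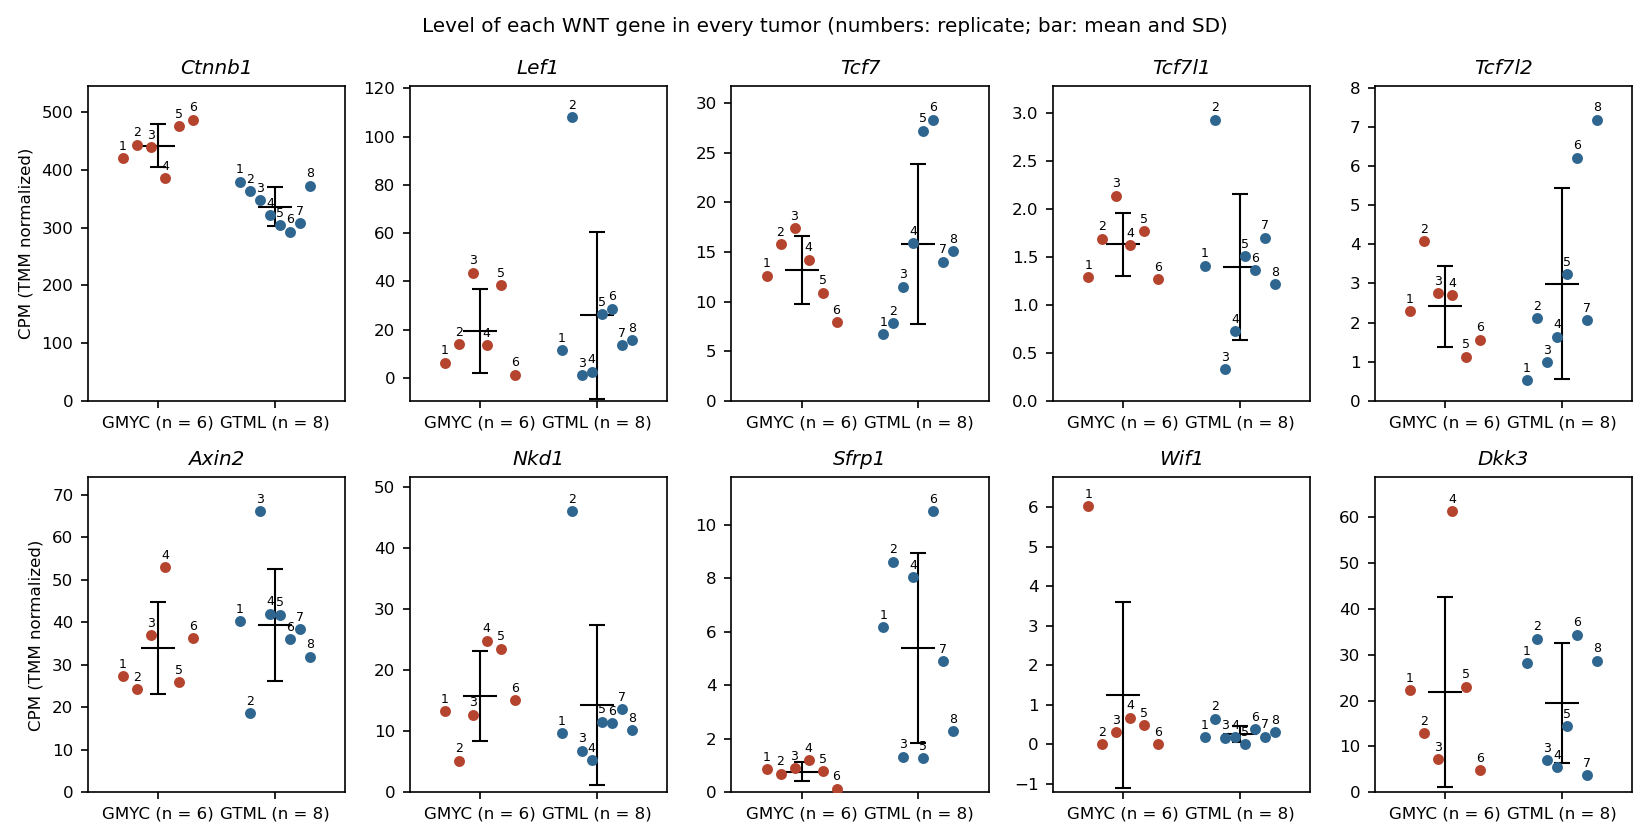
Level of each of the 10 WNT genes in CPM after TMM normalization (y axis, a separate linear scale for each gene) in the 6 GMYC and 8 GTML tumors, with the replicate number at each point and the mean and SD as black bars. For Ctnnb1 and Sfrp1 the 2 models do not overlap, while GTML tumor 2 lies far above the other GTML tumors for Lef1 and Nkd1, GMYC tumor 1 above the other GMYC tumors for Wif1, and GMYC tumor 4 above them for Dkk3.

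Ctnnb1 (ENSMUSG00000006932), the transducer itself, was the most abundant of the 10 genes in every tumor. In GMYC tumors its level ran from 386 CPM through a median of 442 to 487, and in GTML tumors from 293 through 335 to 380. Every GTML tumor lay below the lowest GMYC tumor, which was GMYC tumor 4, and the distance between GMYC tumor 4 at 386 CPM and GTML tumor 1 at 380 CPM was small. The means were 442 ± 37.1 CPM (SD, n = 6) and 336 ± 33.8 CPM (n = 8), a 1.31-fold difference. The log2 fold change was -0.39 with a standard error of 0.0846 (edgeR adjusted p = 0.00785), and it stayed between -0.43 and -0.36 without each tumor in turn, with the call kept each time. Within the tumors of higher snoRNA share it was -0.17 (edgeR adjusted p = 0.589, 4 GMYC and 2 GTML tumors), and within those of lower share -0.58 (adjusted p = 0.0242, 2 GMYC and 6 GTML tumors). In the first set only 2 genes of all those tested were called. With the snoRNA split as a term in the model the log2 fold change of Ctnnb1 was -0.39 (edgeR adjusted p = 0.0176).

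Depth was high for this gene, with 1412 to 3443 counts in a tumor, or 0.272 to 0.663 counts per base of exon. The highest value among 19903 protein-coding genes was 1.27, and Ctnnb1 ranked 101 among them by its mean. These are messenger RNA levels, and β-catenin is controlled largely at the level of the protein, which was not measured here. In bulk tumor RNA, fewer cells of a type and less RNA per cell cannot be told apart.

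Sfrp1 (ENSMUSG00000031548), a secreted Frizzled-related protein that binds WNT ligands, showed the reverse order at a far lower level. In GMYC tumors it had 1 to 9 counts, or 0.141 CPM through a median of 0.833 to 1.21. In GTML tumors it had 6 to 54 counts, or 1.29 CPM through a median of 5.54 to 10.5. All 8 GTML tumors lay above the highest GMYC tumor, but GTML tumors 3 and 5 (1.33 and 1.29 CPM) lay just above GMYC tumor 4, at 1.21 CPM. The GTML tumors thus spanned 8.10-fold among themselves, with GTML tumors 6, 2 and 4 the highest at 10.5, 8.62 and 8.03 CPM. The means were 0.774 ± 0.354 CPM (SD, n = 6) and 5.39 ± 3.52 CPM (n = 8), and the log2 fold change was 2.77 with a standard error of 0.556 (edgeR adjusted p = 0.00632). Only 1 GMYC tumor was above 1 CPM, so the gene passed the filter through the GTML tumors, where it was high.

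The log2 fold change of Sfrp1 was 2.99 within the tumors of higher snoRNA share and 3.29 within those of lower share. Neither passed the edgeR test (adjusted p = 0.0949 and 0.0704), while the fit over all tumors with the split as a term gave 3.11 (adjusted p = 0.00713). Sfrp1 is also counted among the marker genes of SHH medulloblastoma, so the other 7 genes of such a list were read beside it. Of the 6 of them that were tested, Gli1 and Pdlim3 were called higher in GTML tumors and Eya1 higher in GMYC tumors. The share called of all genes tested was 21.2%. The summed level of the 7 genes was 157 to 327 CPM in GMYC tumors and 116 to 254 CPM in GTML tumors. Among the latter it was highest in GTML tumor 2. Eya1 ran from 8.58 to 259 CPM in GMYC tumors and from 0.862 to 6.18 CPM in GTML tumors. The sum thus leans on Eya1 in GMYC tumors and does not rank the models for the list as a whole. The highest levels of Gli1, Gli2, Ptch1 and Pdlim3 were in GTML tumors, and that of Hhip in a GMYC tumor. Atoh1 had at most 3 counts in any tumor. Without GTML tumor 2 the log2 fold change of Sfrp1 was 2.64 (edgeR adjusted p = 0.00484), so the difference was about as large without that library.

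The remaining secreted antagonists varied between single tumors more than between models. Dkk3 (ENSMUSG00000030772), a member of the Dickkopf family of secreted glycoproteins, ran from 4.81 CPM through a median of 17.6 to 61.2 in GMYC tumors and from 3.77 through 21.3 to 34.3 in GTML tumors. The models overlapped almost fully, and GMYC tumor 4 was alone at the top, with the next GMYC tumor at 23.0 CPM. The means were 21.9 ± 20.7 CPM (SD, n = 6) and 19.4 ± 13.1 CPM (n = 8), with a log2 fold change of -0.17, standard error 0.583 (edgeR adjusted p = 0.85). Without GMYC tumor 4 the sign turned, to 0.47 (adjusted p = 0.559). GMYC tumor 4 had the highest summed level of 8 astrocyte markers of all 14 tumors, at 1440 CPM, beside 809 to 1440 CPM over the GMYC tumors and 546 to 986 CPM over the GTML tumors. Slc1a2 (Glt1), whose promoter drives the oncogenes here, made up 811 CPM of that sum, so the sum is not a measure of astrocytes alone. None of those 8 markers was called, beside 21.2% of all genes tested, though none had a log2 fold change above 0 (median -0.79). The part of astrocytes in the level of Dkk3 was not tested.

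Wif1 (ENSMUSG00000020218), a secreted inhibitor that binds WNT ligands, was close to absent in all but 1 tumor. It had 42 counts in GMYC tumor 1, or 6.03 CPM, and 0, 2, 5, 3 and 0 counts in GMYC tumors 2 to 6. In GTML tumors 1 to 8 it had 1, 4, 1, 1, 0, 2, 1 and 2 counts. GMYC tumor 1 was also the tumor in which 2 markers of mature cerebellar granule neurons were highest. Cbln3 was at 62.6 CPM there and 11.3 CPM or less in the other 13, and Gabra6 at 40.0 CPM and 9.33 CPM or less. The other 6 granule neuron markers summed to 659 CPM there, rank 8 of the 14 tumors. The 8 astrocyte and the 8 oligodendrocyte markers summed to 1280 and 368 CPM in GMYC tumor 1, each the second highest of the 14. Slc1a2 made up 672 CPM of the astrocyte sum there. Between the models, Cbln3 and Neurod1 of 7 tested granule neuron markers were higher in GMYC tumors, and of 8 oligodendrocyte markers Olig1 and Olig2 were higher in GMYC and Mog in GTML tumors. These are 28.6% and 37.5% of the markers tested, beside 21.2% of all genes tested. What part such cells had in the Wif1 counts was not tested, and the gene did not enter the test between models.

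Per kb of exon, Tcf7 was the largest of the nuclear TCF/LEF factors in most tumors. Levels between genes are compared here as CPM per kb of exon. The length joins all annotated exons of a gene, 8788 bases for Lef1 and 2625 for Tcf7, and can exceed that of a single transcript. Of the summed level of the 4 family members, Tcf7 (ENSMUSG00000000782) made up 45.8% to 82.4% in GMYC tumors, with a median of 70.6%, and 18.3% to 93.3% in GTML tumors, with a median of 71.1%. It was the largest of the 4 in 5 of 6 GMYC and 7 of 8 GTML tumors. Lef1 (ENSMUSG00000027985) was the largest in the other 2, at 47.9% in GMYC tumor 5 and 75.7% in GTML tumor 2, and had medians of 19.4% and 20.8%. Tcf7l1, often a repressor, and Tcf7l2 stayed at 9.44% or less each in every tumor. The medians of Tcf7 and Lef1 were thus alike in both models, and the spread lay within models. The order of these 2 genes rests on the length used. In CPM the mean of Lef1 was above that of Tcf7, at 19.5 and 13.1 in GMYC tumors and 25.9 and 15.8 in GTML tumors.

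**Figure D2:**
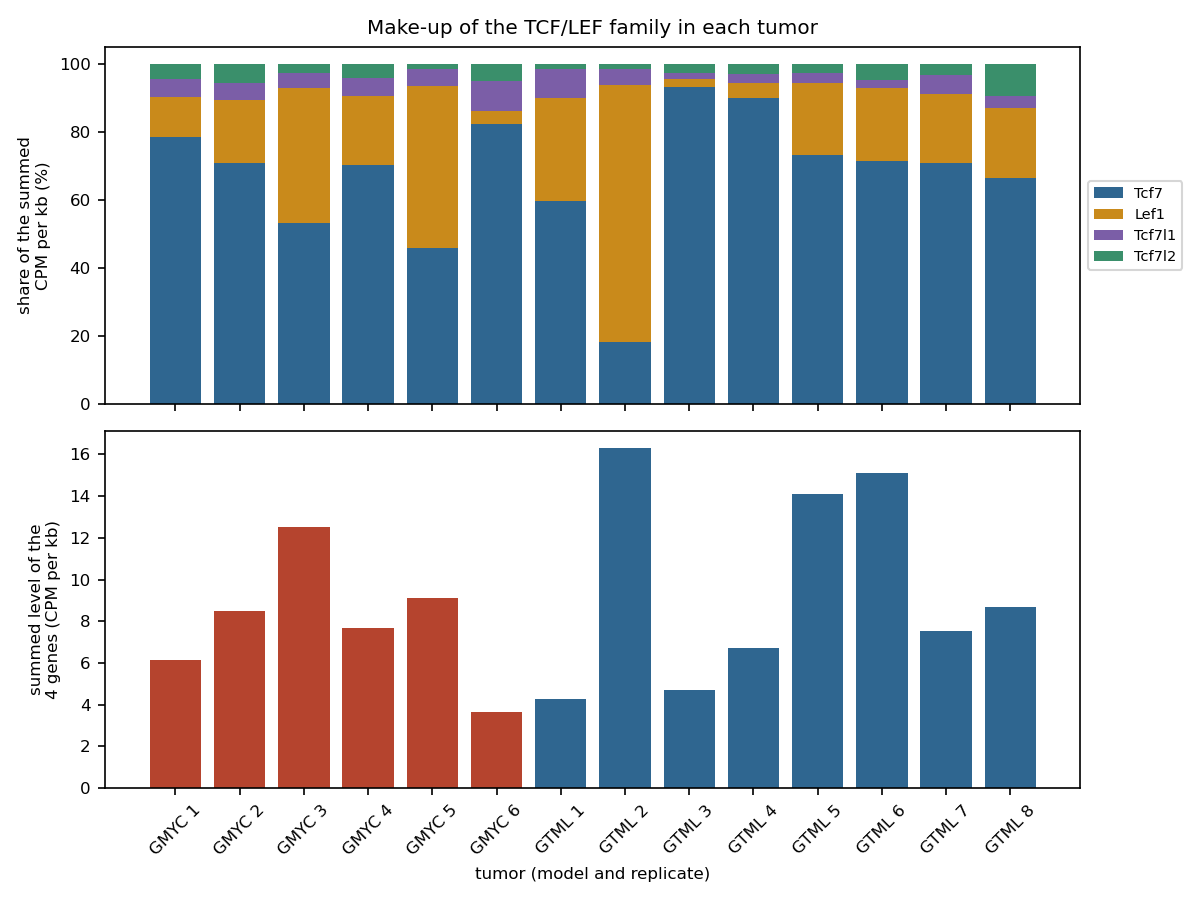
The upper panel shows the share (%) of Tcf7, Lef1, Tcf7l1 and Tcf7l2 in their summed CPM per kb of exon in each of the 14 tumors, and the lower panel that sum (CPM per kb; GMYC tumors red, GTML tumors blue). Tcf7 is the largest part except in GMYC tumor 5 and GTML tumor 2, where Lef1 is, and the sum runs from 3.66 in GMYC tumor 6 to 16.3 in GTML tumor 2.

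Lef1 varied more within each model than the other 8 tested members, 34.3-fold from the lowest to the highest GMYC tumor and 108-fold over the GTML tumors. In GMYC tumors 1 to 6 it was at 6.32, 13.8, 43.6, 13.6, 38.3 and 1.27 CPM. In GTML tumors 1 to 8 it was at 11.5, 108, 0.998, 2.55, 26.3, 28.7, 13.4 and 15.6 CPM. GTML tumor 2 was the highest of all and GTML tumor 3 the lowest, and the models overlapped throughout. The means were 19.5 ± 17.4 CPM (SD, n = 6) and 25.9 ± 34.7 CPM (n = 8), with a log2 fold change of 0.41, standard error 0.82 (edgeR adjusted p = 0.735). Without GTML tumor 2 it was -0.46 (adjusted p = 0.646), so the sign rested on that tumor.

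LEF1 is also made by T cells, endothelial cells and other cells that a biopsy can hold, so their markers were read in the same tumors. The T cell genes Cd3e and Cd3d had at most 4 counts in any tumor, Trac at most 7 and Cd3g at most 9, while the summed level of all 8 T cell markers was 35.1 CPM in GTML tumor 2, within the range of 34.2 to 81.0 CPM over the GTML tumors. Endothelial and mural markers summed to 370 CPM in GTML tumor 2, within 281 to 626 CPM over the GTML tumors and 164 to 459 CPM over the GMYC tumors. Meningeal fibroblast markers summed to 951 CPM there, the second highest of the 14 tumors, with 47.5 to 1050 CPM over the GTML tumors and 114 to 724 CPM over the GMYC tumors. Of these lists only the endothelial gene Kdr was called, higher in GTML tumors, among 8 endothelial and mural, 8 fibroblast and 4 tested T cell markers. The share called of all genes tested was 21.2%. The part of such cells in the Lef1 level was not tested.

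Tcf7 ran from 7.92 CPM through a median of 13.4 to 17.4 in GMYC tumors, and from 6.70 through 14.5 to 28.3 in GTML tumors. GTML tumors 5 and 6 were the highest (27.2 and 28.3 CPM) and GTML tumors 1 and 2 the lowest (6.70 and 7.81 CPM), with the GMYC tumors between them. The log2 fold change was 0.26 with a standard error of 0.322 (edgeR adjusted p = 0.57). It was -1.03 within the tumors of higher snoRNA share and 0.97 within those of lower share (adjusted p = 0.284 and 0.135), so the models stood in opposite order in the 2 sets.

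Tcf7l1 (ENSMUSG00000055799) and Tcf7l2 (ENSMUSG00000024985) rested on few reads. Tcf7l1 had 2 to 18 counts per tumor, at 1.63 ± 0.325 CPM (SD) over the 6 GMYC tumors and 1.40 ± 0.761 CPM over the 8 GTML tumors, for a log2 difference of -0.22 with a standard error of 0.374 (edgeR adjusted p = 0.696). Tcf7l2 had 3 to 47 counts, at 2.42 ± 1.04 and 3.00 ± 2.43 CPM, for a log2 difference of 0.31 with a standard error of 0.505 (edgeR adjusted p = 0.68). The highest tumors were GTML tumor 2 for Tcf7l1 (2.93 CPM) and GTML tumors 8 and 6 for Tcf7l2 (7.18 and 6.21 CPM). The standard errors were large enough that a difference of the size of that of Ctnnb1 was not detectable for either gene. The same holds for Axin2, Tcf7, Nkd1, Dkk3 and Lef1, whose standard errors ran from 0.241 to 0.82.

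Neither of the feedback genes Axin2 and Nkd1 was called between the models, which does not show that their levels were equal. Axin2 (ENSMUSG00000000142), a scaffold of the destruction complex and a widely used readout of β-catenin activity, was at 27.4, 24.2, 36.9, 53.0, 25.9 and 36.3 CPM in GMYC tumors 1 to 6. In GTML tumors 1 to 8 it was at 40.2, 18.7, 66.1, 42.0, 41.8, 36.1, 38.3 and 31.9 CPM. GTML tumor 3 was the highest of all and GTML tumor 2 the lowest. The means were 34.0 ± 10.8 CPM (SD, n = 6) and 39.4 ± 13.2 CPM (n = 8), with a log2 fold change of 0.21, standard error 0.241 (edgeR adjusted p = 0.536).

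Nkd1 (ENSMUSG00000031661), an inhibitor that binds Dishevelled proteins, was at 13.3, 5.21, 12.7, 24.8, 23.5 and 15.1 CPM in GMYC tumors 1 to 6. In GTML tumors 1 to 8 it was at 9.70, 46.0, 6.82, 5.29, 11.6, 11.3, 13.6 and 10.2 CPM. GTML tumor 2 was the highest of all, and the other 7 GTML tumors lay at 13.6 CPM or less. The means were 15.8 ± 7.33 CPM (SD, n = 6) and 14.3 ± 13.1 CPM (n = 8), with a log2 fold change of -0.14, standard error 0.452 (edgeR adjusted p = 0.845). Without GTML tumor 2 it was -0.69 (adjusted p = 0.114). In GMYC tumors both feedback genes were lowest in tumor 2 and highest in tumor 4.

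GTML tumor 2 thus held the highest level of Lef1, Nkd1 and Tcf7l1 of all 14 tumors and the lowest of Axin2. In GTML tumor 3 the order was the other way round for Lef1 and Tcf7l1, which were lowest of all, and for Axin2, which was highest. GTML tumor 2 also had the highest summed level of the 16 WNT receptor genes, at 1220 CPM (726 to 1220 over the GTML and 671 to 857 over the GMYC tumors). Among the GTML tumors it had the lowest summed level of WNT ligands (36.4 CPM), of the destruction complex and transducers (2160 CPM), of nuclear co-factors (1040 CPM) and of the other intracellular antagonists (133 CPM, where the GMYC tumors had 167 CPM or more). The last list also holds Kremen1 and Kremen2, whose proteins sit at the cell surface. Each is a value of 1 tumor and carries no replicate error.

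**Figure D3:**
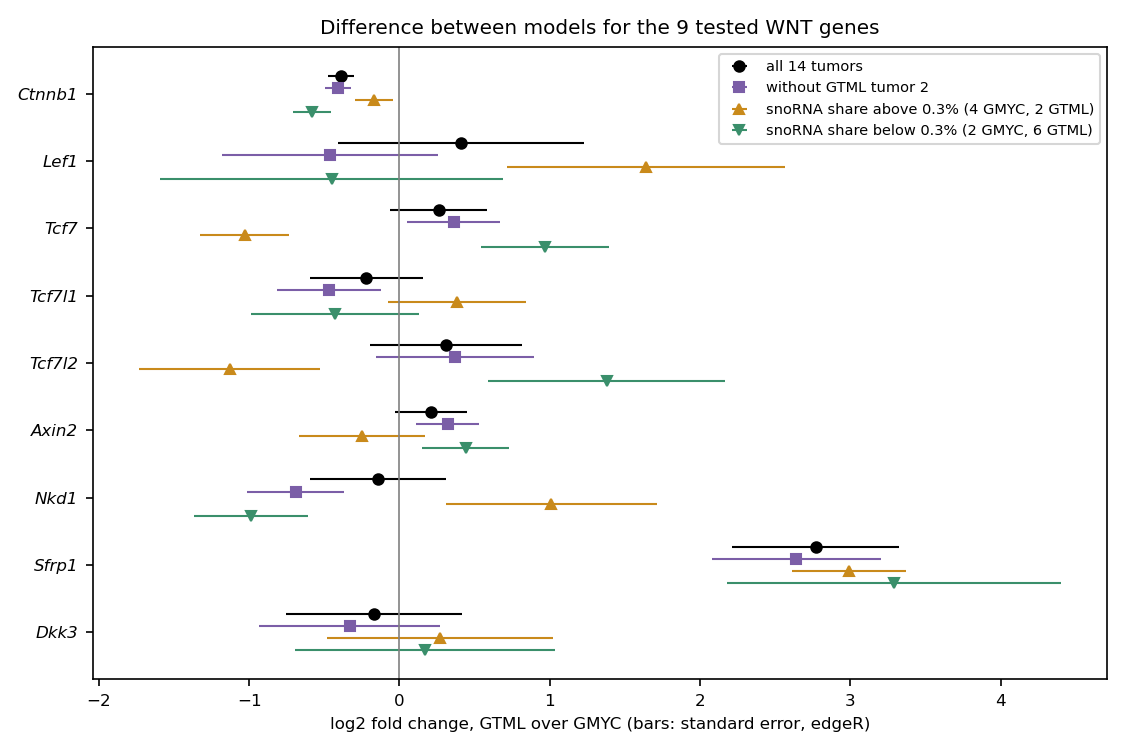
Log2 fold change of GTML over GMYC tumors with its standard error (edgeR) for the 9 tested WNT genes, over all 14 tumors (circles), without GTML tumor 2 (squares), and within the tumors with a snoRNA share above 0.3% (upward triangles) or below it (downward triangles). Ctnnb1 lies below 0 and Sfrp1 above 0 in each of the 4 fits, from -0.58 to -0.17 and from 2.64 to 3.29, whereas Lef1, Tcf7, Tcf7l1, Tcf7l2, Axin2, Nkd1 and Dkk3 lie on both sides of 0.

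Ranked per length over all 14 tumors, the 10 genes fell into steps. Ctnnb1 stood at 73.5 ± 12.3 CPM per kb (SD, n = 14), above every other member. Axin2 (6.73 ± 2.20), Dkk3 (6.10 ± 4.78) and Tcf7 (5.59 ± 2.45) followed, and these neighbors did not differ beyond their spread. Nkd1 (3.28 ± 2.34) and Lef1 (2.63 ± 3.17) likewise lay within each other's spread. Sfrp1 was at 0.780 ± 0.804 CPM per kb, and Tcf7l1 (0.382 ± 0.154), Tcf7l2 (0.313 ± 0.219) and Wif1 (0.281 ± 0.640) followed, with no separation among these 3. The place of Sfrp1 comes from the GTML tumors, where it was at 1.23 ± 0.806 CPM per kb (n = 8). In GMYC tumors it was the lowest of the 10 genes by its mean, at 0.177 ± 0.081 CPM per kb (n = 6).

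The 3 protein-coding genes most like each called member were sought by the Pearson correlation of log2 CPM over the 14 tumors after centering within each model, among 15333 genes. For Ctnnb1 they were Fh1, the fumarate hydratase of the citric acid cycle (r = 0.91), Nme7 (0.89) and Ccdc90b (0.886). For Sfrp1 they were Cadps2, a regulator of vesicle release (r = 0.876), Sms, spermine synthase (0.842), and Timm8a1 (0.838). The points share libraries and their depth, the search keeps the highest of many values, and for Sfrp1 the GMYC values rest on 9 counts or less.

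Beyond these 10 genes, the rest of the pathway was read from lists of 95 further genes. Of the 82 that were tested, 13 were higher in GTML tumors, 4 were higher in GMYC tumors and 65 did not pass the test. The share called was 20.7%, beside 21.2% of all genes tested. Their median log2 fold change was 0.36, with 59 of 82 above 0, beside a median of 0.0362 and 52.5% above 0 over all genes tested. The 13 genes that could not be tested, 8 of them WNT ligands, had at most 16 counts in any tumor.

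**Figure D4:**
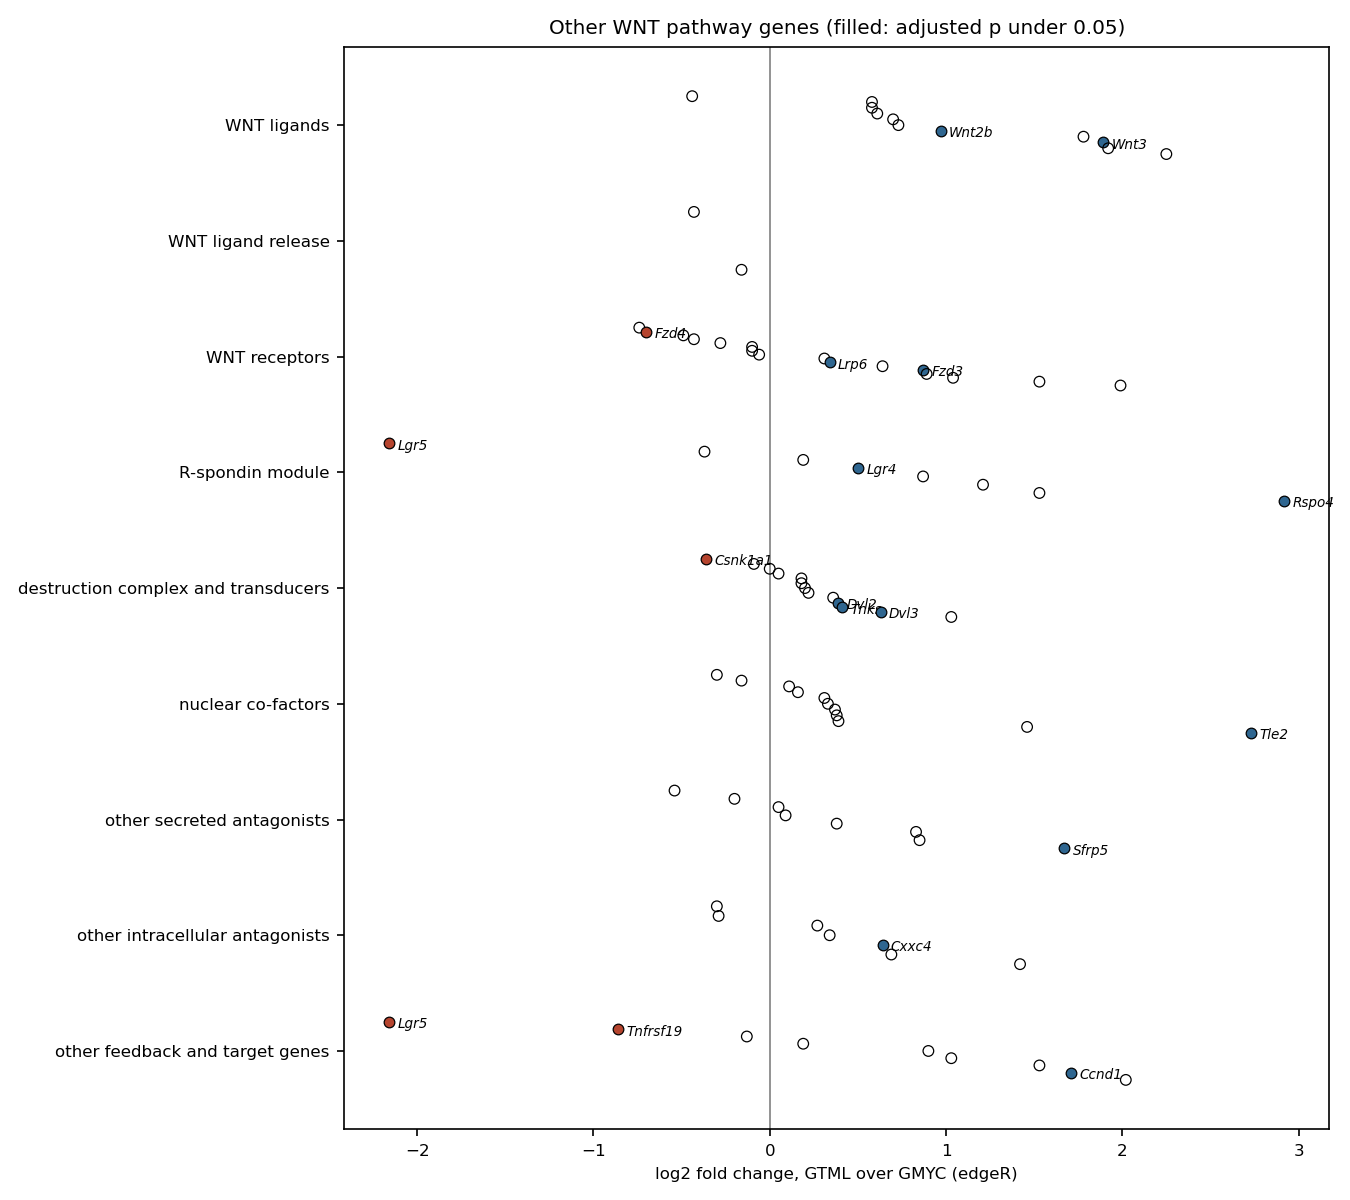
Log2 fold change of GTML over GMYC tumors (x axis, edgeR) for the tested pathway genes other than the 10, by list (y axis), with genes at an adjusted p under 0.05 filled and named (blue higher in GTML, red higher in GMYC tumors) and Lgr5 drawn in both lists that hold it. Rspo4, Tle2, Wnt3, Ccnd1 and Sfrp5 lie farthest to the right among the called genes, from 2.92 to 1.67, and Lgr5 farthest to the left at -2.16.

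Of 11 tested WNT ligands, 2 were higher in GTML tumors (18.2%, beside 21.2% of all genes tested). Wnt3 had 1.56 ± 1.17 CPM (SD) over the 6 GMYC tumors and 5.81 ± 3.20 CPM in GTML tumors (n = 8), with a log2 fold change of 1.89 (edgeR adjusted p = 0.0102). Wnt2b was at 6.77 ± 2.53 and 13.3 ± 4.02 CPM (0.97, adjusted p = 0.0253). Porcn and Wls, which acylate and carry the ligands, were not called. Of 16 receptor genes, Fzd3 (0.87, adjusted p = 0.0204) and the co-receptor Lrp6 (0.34, adjusted p = 0.032) were higher and Fzd4 (-0.70, adjusted p = 0.025) was lower in GTML tumors. They are 18.8% of the 16.

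The R-spondin module, which raises the number of receptors at the cell surface, had 3 of 8 tested genes called, in both directions. That is 37.5% of a short list, beside 21.2% of all genes tested. Lgr5, an R-spondin receptor and a target of β-catenin in several stem cells, was at 91.0 ± 40.7 CPM in GMYC tumors (49.1 to 141) and 20.3 ± 12.2 CPM in GTML tumors (3.10 to 37.5). Its models did not overlap, and it fell by 2.16 on the log2 scale in GTML tumors, with a standard error of 0.451 (edgeR adjusted p = 0.00699). Its relative Lgr4 was higher in GTML tumors (0.50, adjusted p = 0.03), as was the ligand Rspo4 (2.92, adjusted p = 0.0277), which had 5 counts or less in each GMYC tumor and 0 to 17 in GTML tumors. Rspo4 was above 1 CPM only in 4 GTML tumors and so entered the test through them. The call of Lgr5 was lost with a covariate from Y-linked genes (edgeR adjusted p = 0.0514) and within the tumors of lower snoRNA share (-1.59, adjusted p = 0.142).

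Of 13 genes of the destruction complex and its transducers, 4 were called (30.8%, beside 21.2% of all genes tested). Dvl2 (0.39, adjusted p = 0.0168), Dvl3 (0.63, adjusted p = 0.0441) and Tnks (0.41, adjusted p = 0.0387) were higher in GTML tumors by edgeR. The first pair encodes Dishevelled proteins, and tankyrase, the product of Tnks, promotes the breakdown of Axin. Csnk1a1, a kinase that primes β-catenin for degradation, was lower in GTML tumors (-0.36, adjusted p = 0.00639), and is named after its value was seen, as the remaining call of this list.

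Among 11 nuclear co-factors Tle2 alone was called (9.09%, beside 21.2% of all genes tested), a Groucho-type co-repressor that binds TCF/LEF factors. It was at 1.45 ± 0.621 CPM in GMYC tumors (1.00 to 2.69) and 9.75 ± 4.34 CPM in GTML tumors (6.83 to 17.3). The models did not overlap, with a log2 difference of 2.73 and a standard error of 0.35 (edgeR adjusted p = 0.000742). Of the other antagonists, the secreted Sfrp5 (1.67, adjusted p = 0.0139) and the intracellular Cxxc4 (0.64, adjusted p = 0.0397) were called, both higher in GTML tumors. They are 12.5% of 8 and 14.3% of 7 tested genes of their lists. Sfrp5 belongs to the same family as Sfrp1, and with 2 GMYC tumors above 1 CPM it too passed the filter through the GTML tumors.

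Among 9 tested feedback and target genes, Ccnd1, which encodes the G1 cyclin D1 and also answers to many other pathways, was at 34.1 ± 21.6 CPM in GMYC tumors (14.4 to 75.8) and 111 ± 22.6 CPM in GTML tumors (86.5 to 156). The models did not overlap, with a log2 difference of 1.71 and a standard error of 0.291 (edgeR adjusted p = 0.00323). Tnfrsf19 was lower in GTML tumors (-0.86, adjusted p = 0.0347), and so was Lgr5, which is also counted in the R-spondin module. These 3 are 33.3% of the 9, beside 21.2% of all genes tested. The called targets lay on both sides, and Axin2 between them was not called. Of the 16 other pathway genes named by rule, Wnt3, Lgr5, Dvl2, Tle2, Sfrp5 and Ccnd1 kept their call without each tumor in turn, and the other 10 lost it without at least 1 tumor. With the covariate from Y-linked genes 10 of the 16 were not called, Lgr5 and Dvl2 (edgeR adjusted p = 0.0911) among them. The share called of all genes tested was 7.98% in that fit. The number of calls among the other pathway genes fell from 17 to 8 without GMYC tumor 3, to 10 without GMYC tumor 5 or GTML tumor 5, and to 11 without GMYC tumor 1 or GTML tumor 7. The share called of all genes tested fell with it, from 21.2% to 12.5% without GMYC tumor 3, 13.9% without GMYC tumor 5, 14.8% without GTML tumor 5, 15.2% without GMYC tumor 1 and 15.1% without GTML tumor 7. Without GTML tumor 2 the number of calls rose to 22, and the share of all genes tested to 30.7%.

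The snoRNA split moved several of these 16 genes. With the split as a term in the edgeR fit, 9 of the 16 kept their call. The share called of all genes tested fell from 21.2% to 13.6% in that fit. Wnt2b (adjusted p = 0.0629), Fzd4 (0.0676), Lgr4 (0.0647), Rspo4 (0.174), Dvl3 (0.124), Cxxc4 (0.159) and Tnfrsf19 (0.126) lost it. Within the tumors of higher share none of the 15 that could be fitted was called, and within those of lower share 8 of 16 were. Of all genes tested, 0.0106% and 13.3% were called in these 2 sets. No sign turned in either set. The 16 genes were picked by their calls over these same tumors, so the kept signs are not an independent check. The log2 fold changes at higher and lower share were 0.17 and 1.87 for Wnt2b, 0.54 and 1.61 for Fzd3, -1.28 and -0.21 for Fzd4, 0.68 and 2.64 for Sfrp5, and 0.0356 and 0.95 for Cxxc4. They were closer for Tle2 (2.51 and 2.45), Ccnd1 (1.73 and 1.82) and Wnt3 (1.92 and 2.03). The difference between the sets was not tested.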

How the data were processed

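Total RNA of flash-frozen GMYC tumor biopsies was sequenced on an Ion Proton instrument. The paper describes the GTML sequences as made in a similar way, at least in part in an earlier study. The authors aligned the reads to mouse assembly mm9 (STAR, followed by Bowtie), assigned them to genes by featureCounts and a GENCODE annotation, and deposited unnormalized counts of 37310 genes. The submitters' processing notes list STAR 2.4.0, Bowtie2 2.2 and Subread 1.5.2. Strand and duplicate handling are not given in the sources used here. A further 18 columns of per-sample counts match no sample label and were not used.

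Symbols and exon lengths came from a GRCm38 annotation by Ensembl identifier (32620 genes, 87.4%). The 6 GMYC and 8 GTML tumors were compared with edgeR 4.0.16 (R 4.3.3, TMM, quasi-likelihood test) on the 21024 genes that exceeded 1 CPM in 3 or more tumors, with p-values adjusted by Benjamini-Hochberg. Total counts per tumor were 4602294 to 7279811. The code was tested on simulated counts. Alternatives were DESeq2 1.42.0, limma-voom (limma 3.58.1), other normalizations and filters, each tumor left out, a replicate block, the snoRNA split (0.3%), a Y-linked covariate, and protein-coding genes only. No pair of libraries within a model agreed within sampling noise. Members, lists and the snoRNA limit were chosen with earlier results of these data known. Named are the 10 members, up to 3 called genes of each other pathway list by largest absolute log2 fold change, and the 3 genes most correlated with each called member (log2 CPM, prior count of 2). Further marker lists covered oligodendrocytes, choroid plexus (0 of 6 called, Ttr at most 11 counts, Folr1 at most 5) and microglia and macrophages (1 of 8 called, Cd68). Figures used matplotlib 3.10.9 (Python 3.11.15).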

Additional observations from a re-analysis of the deposited data

Results flagged for a closer look

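In 4 of the 20 groups formed by the 10 WNT genes in the 2 models, 1 tumor lay farther from its neighbors than Dixon's 95% limit allows, where chance gives about 1 in 20. Lef1 in GTML tumor 2 was at 108 CPM, with the next GTML tumor at 28.7 CPM, a gap of 0.741 of the whole range. Nkd1 in the same tumor was at 46.0 CPM, with the next at 13.6 CPM (0.796 of the range). Wif1 in GMYC tumor 1 was at 6.03 CPM, with the next GMYC tumor at 0.674 CPM (0.888 of the range). Dkk3 in GMYC tumor 4 was at 61.2 CPM, with the next GMYC tumor at 23.0 CPM (0.677 of the range). The limit treats each group as a sample from a normal distribution on the CPM scale, which is skewed for low counts.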

How the results depend on the processing

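Ctnnb1 stayed lower and Sfrp1 higher in GTML tumors in all 26 alternatives, from -0.58 to -0.17 and from 2.52 to 3.36 on the log2 scale, and the 2 calls held except in the fits named here. Without each tumor in turn the number of called members stayed at 2. Members past the stricter rule were 0 to 1 (0 without GMYC tumor 1, 3, 4, 5 or 6 or GTML tumor 6 or 7). Called pathway genes other than the members were 8 to 22. The 8 came without GMYC tumor 3 (12.5% of all genes tested called) and the 22 without GTML tumor 2 (30.7%). Limma-voom put 0 members past the stricter rule, and DESeq2 called 26 pathway genes, beside 27.9% of all genes tested. Among tumors of higher snoRNA share 0 members passed either rule and 0 pathway genes were called, with 2 calls among all genes there and 2420 at an unadjusted p under 0.05. Among tumors of lower share 1 member was called and 0 passed the stricter rule. A covariate from Y-linked genes, which all GMYC tumors and 4 of the 8 GTML tumors expressed, left 7 pathway genes called beside 7.98% of all genes, with Ctnnb1 at an adjusted p of 0.0272 and Sfrp1 at 0.00877. The cause of these changes was not tested.

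The replicate numbers of the labels did not pair the tumors, since the deviations of same-numbered tumors correlated at -0.212 to 0.24. With a replicate block 0 members passed either rule (Ctnnb1 -0.40, edgeR adjusted p = 0.0876; Sfrp1 2.65, adjusted p = 0.0704) and 3 pathway genes were called, beside 251 genes in all. Under the block Dkk3 was at 0.15 and Tcf7l2 at -0.26, both reversed in sign without a call.

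Other signs turned for uncalled members. Tcf7l2 was at -0.00435 in limma-voom and -1.13 at higher snoRNA share, and -0.0197 to 0.53 without each tumor. Dkk3 was at 0.21 with the snoRNA term, 0.27 at higher and 0.17 at lower share, and -0.38 to 0.47 without each tumor. At higher share Axin2 was at -0.25, Nkd1 at 1.01, Tcf7 at -1.03 and Tcf7l1 at 0.38. Lef1 was at -0.45 at lower share, -0.30 with the Y-linked covariate, and -0.46 to 0.82 without each tumor, while Nkd1 was at -0.69 to 0.0373 without each tumor. Without the filter on low counts Wif1 had a log2 fold change of -2.18, standard error 0.906 (edgeR adjusted p = 0.119). Depth limits Sfrp1 in GMYC tumors, Wif1, Tcf7l1 and Tcf7l2 most.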
